A study of Drosophila melanogaster with 4 samples.

Results

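Circular RNAs (circRNAs) are closed rings that form when a splice site at the end of an exon is joined backwards to one upstream of it, a reaction called back-splicing. The smallest rings consist of 1 short exon or a pair of neighbouring exons, and in fly neurons many genes are known to give such rings. A ribosome that moves across the joined ends protects a fragment that cannot come from the linear transcript, which is how ribosome footprinting can detect a ring on ribosomes.

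The circRNAs described here are the short ones whose ends occur once in the deposited list. They were chosen as the rows whose first and second coordinate are each found in no other row on the same chromosome, and whose span, the second coordinate minus the first, is under 300 bp. There were 305 such rows among 2563, which is 11.9% of the list. Neither the choice of ends nor the limit on span used the footprint reads. Of the other 2258 rows, 1088 had unique ends and a longer span, and 98 were as short but shared an end with another row. All rows are called circRNAs here, as in the deposited list. Whether each row is a back-spliced ring was not tested, and 264 of the 305 did not match annotated exons in span.

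Footprints came from heads of Drosophila melanogaster in 4 libraries, 2 from tissue treated with a low detergent buffer and 2 with a high detergent buffer. Strain, genotype, sex and age of the flies are not given in the labels, which also do not say whether replicates came from separate groups of flies. Reads are the authors' count over all libraries together, 230 in total and assumed here to span back-splice junctions, so no value below has a replicate error and the buffers were not compared. The list holds no levels of linear transcripts, so the tissue label was not checked against marker genes. Intervals are 95% exact intervals (Clopper-Pearson for shares, Poisson for reads). They cover counting error only and treat rows as independent, although rows of 1 host gene share that gene.

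The short circRNAs with unique ends carried hardly any footprints. Of the 305, 1 had a read, which is 0.328% (exact interval 0.0083% to 1.81%), where 4.76% of all rows in the list had one. Among the other 2258 rows 121 had a read, 5.36% (4.47% to 6.37%), and the intervals did not overlap. The short circRNAs with unique ends held 2 of the 230 reads (Poisson interval 0.242 to 7.22), 0.870% of them, and the remaining 304 had 0 reads. A count of 0 allows up to 3 reads for a single row, so a footprint on any 1 of these 304 could have been missed at this depth.

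The circRNA with reads came from Ggamma30A, which encodes a G protein gamma subunit that acts in fly phototransduction. It lies in dm3 on chromosome 2L from 9272466 to 9272607, spans 142 bp and had 2 reads (0.242 to 7.22). Its span equalled 1 annotated exon, which holds the start codon in at least 1 matching transcript and carries up to 113 coding bases. That exon is exon 2 or 3 of the 7 transcripts that contain it, between introns of at least 12880 bases upstream and 18448 bases downstream. No other listed circRNA overlapped it.

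Footprints were also rare in neighbouring classes of the list. The 6 shortest rows with any read were those of Ca-alpha1T (122 bp, 1 read), heph (124 bp, 2 reads), Ggamma30A (142 bp, 2 reads), pigs (401 bp, 1 read), fng (405 bp, 1 read) and trio (426 bp, 1 read). Ca-alpha1T encodes a calcium channel and heph a splicing regulator that binds polypyrimidine tracts, and both of these short rows shared an end with another row. No row between 142 and 401 bp had a read. Among the 98 short rows with a shared end, 2 had a read (2.04%, 0.248% to 7.18%), an interval that overlapped that of the short rows with unique ends. Rows with unique ends and spans of 300 to 399 bp had 0 reads on 106 circRNAs (upper limit 3.42%), and those of 400 to 499 bp had a read in 2 of 77 cases (2.60%, 0.316% to 9.07%).

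**Figure D1:**
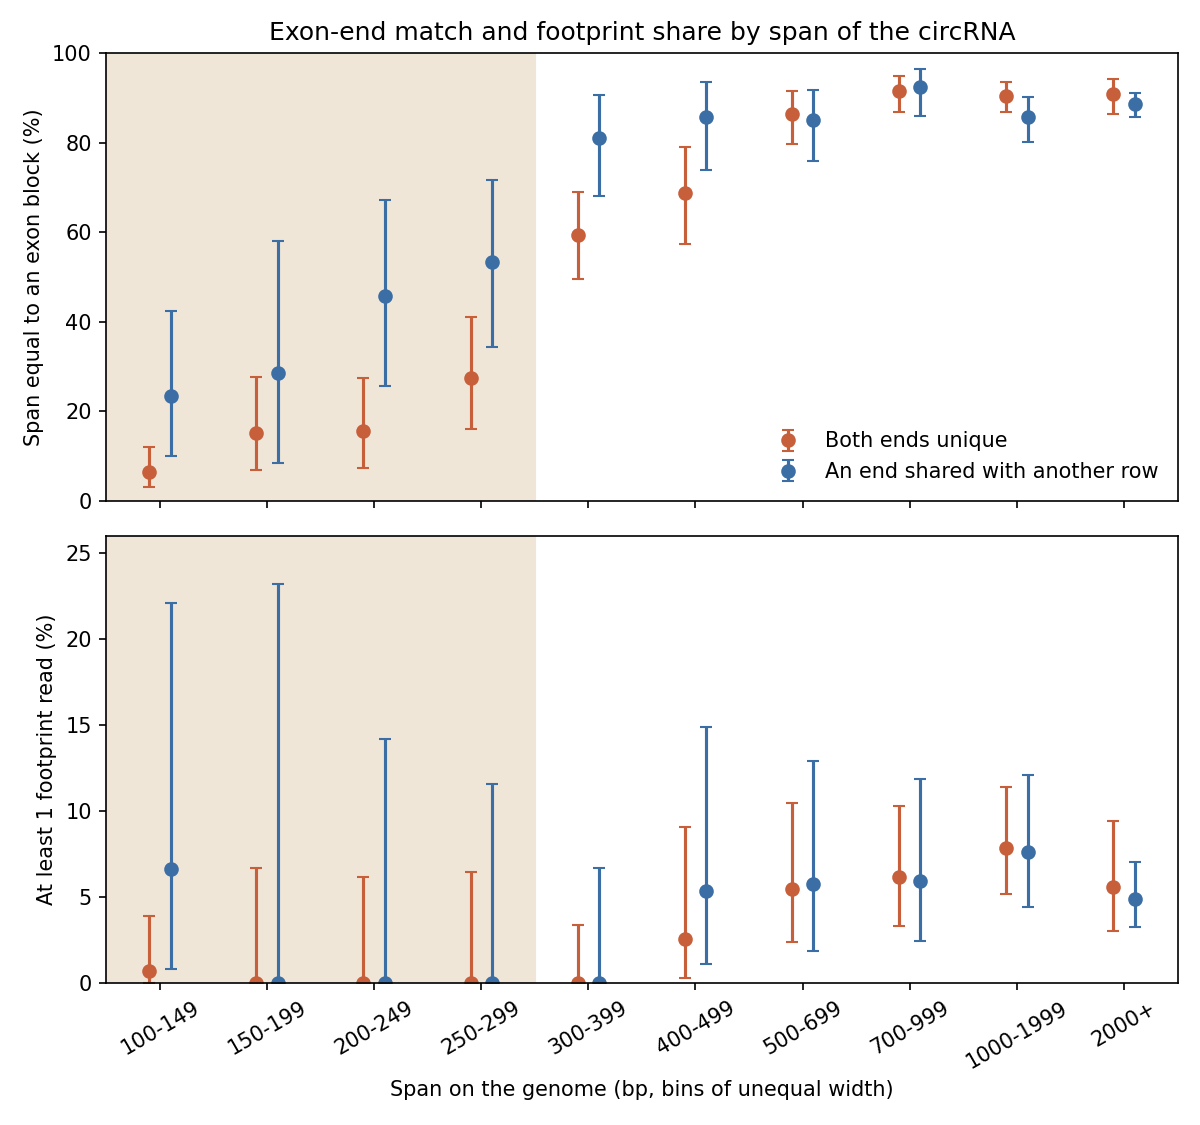
Share of circRNAs whose span equals an exon block (upper panel, percent) and share with at least 1 footprint read (lower panel, percent) by span in bp, for rows with both ends unique (orange) and rows sharing an end (blue). Points are shares, bars are 95% exact binomial intervals and the shaded bins are spans under 300 bp. Among rows with unique ends the match to exon blocks rises from 6.47% at 100 to 149 bp to 91.5% at 700 to 999 bp, and 1 of the 305 rows in the shaded bins has a read.

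The next question was whether the ends of these circRNAs fit annotated exons. An exon block is the stretch from the first base of an exon to the last base of that exon or of a later one in the same transcript, and a row whose span has exactly the length of a block of its host gene is called at exon ends. Of the 305 short circRNAs with unique ends 41 were at exon ends, 13.4% (9.82% to 17.8%), where 76.1% of all rows in the list were. The other rows matched in 1909 of 2258 cases, 84.5% (83.0% to 86.0%), and the short rows with a shared end in 38 of 98, 38.8% (29.1% to 49.2%). Rows were called at exon ends by length alone, because the annotation is on a later genome build. Positions were compared only on chromosome 2L, for rows with a single matching block. When the span was lengthened or shortened by 1 to 11 bases, between 4 and 16 of the 305 still matched a block (1.31% to 5.25%), so several of the 41 could be matches of length alone.

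Within each exon class the footprint shares of short circRNAs with unique ends and of other rows had overlapping intervals. At exon ends 1 of 41 had a read (2.44%, 0.0617% to 12.9%), against 114 of 1909 other rows (5.97%, 4.95% to 7.13%). Away from exon ends 0 of 264 had a read, which allows a share of up to 1.14% (3 of 264; exact upper limit 1.39%), against 7 of 349 other rows (2.01%, 0.810% to 4.09%). The low share among all 305 went along with the large number of rows away from exon ends, 264 of 305, and the part this plays was not tested.

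The spans were crowded at the short end. The lowest was 101 bp, the median 167 bp and the highest 297 bp. The bin from 100 to 124 bp held 97 circRNAs (31.8%), of which 7 were at exon ends, and the bin from 275 to 299 bp held 26, of which 9 were. Of the 56 rows in the whole list with a span up to 110 bp, 48 were short circRNAs with unique ends. The median span was 214 bp at exon ends and 153 bp away from them.

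**Figure D2:**
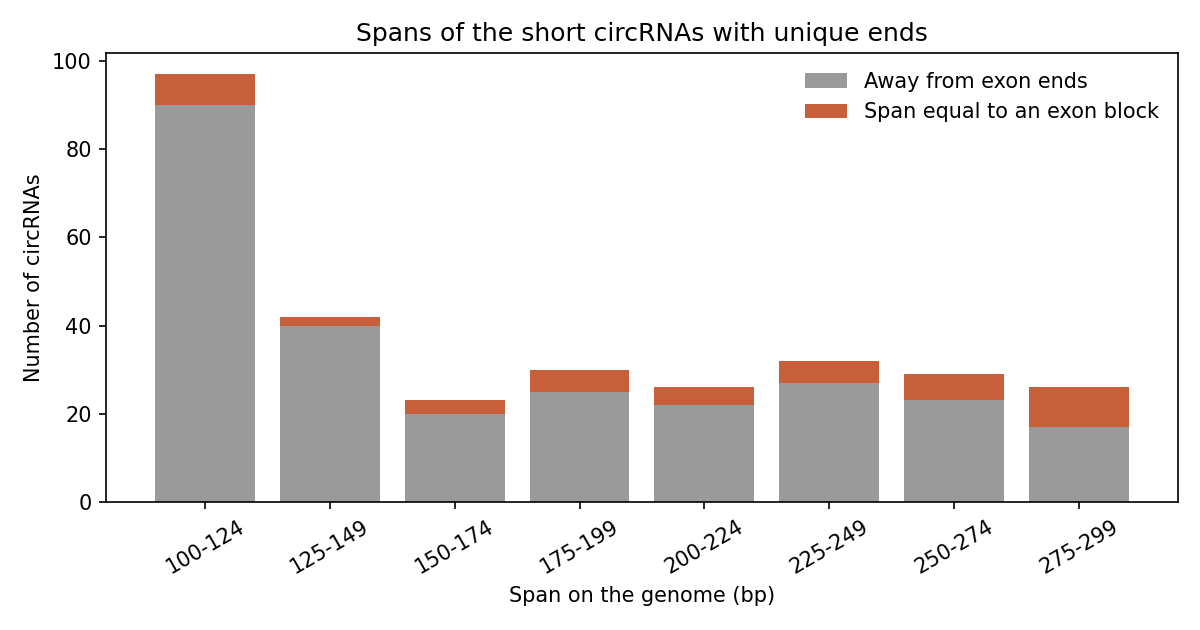
Number of short circRNAs with unique ends (vertical axis) by span in bp (bins of 25 bp), split into those whose span equals an exon block (orange) and those away from exon ends (grey). The first bin holds 97 of the 305, and the number at exon ends goes from 7 in that bin to 9 in the last.

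The 10 shortest were circRNAs of 101 bp from Hmu, Msp300, oys and wge, of 102 bp from ATPsynbeta, CG11458 and ap, and of 103 bp from CG42232, Ogdh and Stt3A. They belong to unlike functions. Msp300 encodes a nesprin that anchors muscle nuclei, wge a chromatin protein, ATPsynbeta a subunit of mitochondrial ATP synthase, ap a LIM-homeodomain transcription factor and Stt3A a subunit of the enzyme that attaches glycans to proteins. Among these 10 the circRNA of Ogdh, the oxoglutarate dehydrogenase of the citric acid cycle, was at exon ends and the other 9 were not. All 10 had 0 reads.

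The longest, at 297 bp, came from LanA, Lar, l(3)80Fj and tou, and those of Dys (listed as det) and Fas2 spanned 296 bp. Those of Lar, a receptor tyrosine phosphatase that guides axons, of Fas2, a neuronal adhesion molecule, and of Dys, the fly dystrophin, were at exon ends. Just outside the limit, rows with unique ends and a span of 300 bp came from CadN2, RhoGAP100F and t. The latter 2 were at exon ends and CadN2 was not, and all 3 had 0 reads.

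The 41 circRNAs at exon ends were looked at by their place in the gene. Those of Bruce and shot matched several blocks of equal length and were not assigned. Of the other 39, 30 (76.9%, 60.7% to 88.9%) matched 1 exon and 9 matched 2 exons. Other rows matched 1 exon in 336 of 1879 cases (17.9%, 16.2% to 19.7%), and the limit on span favours single exons by construction.

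An annotated start codon of any matching transcript lay within 13 of the 39 (33.3%, 19.1% to 50.2%). Among other rows it was 713 of 1878 (38%, 35.8% to 40.2%), and these intervals overlapped. In all matching transcripts it lay within 11 of the 39 (28.2%), a count not made for the other rows. The 13 came from Moe (109 bp), FASN1 (122 bp), Ggamma30A (142 bp), CG34347 (160 bp), path (193 bp), red (198 bp), Ilp6 (214 bp), Frq2 (233 bp), CG7627 (252 bp), Tlk (272 bp), ec (290 bp), Dys (296 bp) and Fas2 (296 bp). Moe encodes moesin, which links actin to the membrane, Ilp6 an insulin-like peptide, Frq2 the neuronal calcium sensor frequenin and Tlk a protein kinase. The coding bases within the block, as the longest value over matching transcripts, ran from 3 in FASN1 and 15 in Moe to 279 in ec. In FASN1 they were the start codon alone. Where transcripts differ, the one with the longest value need not have its start codon in the block. The row of FASN1 did not lie at the position of its block on 2L, so its place among the 13 rests on length alone. Apart from Ggamma30A all 13 had 0 reads.

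Coding exons without start or stop codon made up 19 of the 39 (48.7%, 32.4% to 65.2%), against 1044 of 1878 other rows (55.6%, 53.3% to 57.9%). These were the circRNAs of Ogdh, Dmtn, Serinc, Crk, Glut1, ninaC, Patronin, Tsp96F, grp, pdgy, Vajk4, Dad, DIP-lambda, Cngl, Nedd4, JIL-1, bi, dati and Lar. Glut1 encodes a glucose transporter, ninaC a myosin with a kinase domain in photoreceptors, Crk a signalling adaptor, Dad an inhibitory Smad and Nedd4 a ubiquitin ligase. In such a ring the reading frame of the gene continues over the back-splice junction when the number of exonic bases is a multiple of 3. This held for 10 of the 19 (52.6%, 28.9% to 75.6%) and for 388 of the 1044 other rows (37.2%, 34.2% to 40.2%), with overlapping intervals. The shortest ring of this kind was that of Dmtn at 105 bp, followed by Crk at 123 bp and ninaC at 150 bp.

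The remaining 7 were few of a kind. The circRNAs of su(w[a]) (listed as CG11638), Dp1 and MEP-1 lay in untranslated exons. Those of sqd and CG6695 held the stop codon of a matching transcript, though not always of all. Those of Stim and Syt7 were coding in some transcripts and partly untranslated in others. None of the 7 had a read. The first exon of a transcript has no splice site at its start, so it is not an ordinary substrate of back-splicing. The blocks matched by FASN1 and Dp1 were first exons in all matching transcripts, whereas 0 of 1879 other rows matched such a block. On chromosome 2L, where 314 of 321 rows with a single matching block lie at identical positions in both genome builds, 5 of the 6 short circRNAs with unique ends did so and that of FASN1 did not.

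Introns beside a single circularised exon are known to be long in flies. For the 28 short circRNAs with unique ends that matched 1 internal exon, the shorter annotated intron on the upstream side had a median of 966 bases and on the downstream side of 1845 bases. For the 336 other rows of 1 exon the medians were 4249 and 4892.5 bases. Both introns were 1000 bases or longer in 11 of 28 (39.3%, 21.5% to 59.4%) against 244 of 336 (72.6%, 67.5% to 77.3%), and these intervals did not overlap. Both were under 100 bases in 3 of 28, namely for Dmtn (82 and 77 bases), Serinc (65 and 59) and ninaC (66 and 55), and in 3 of the 336 other rows. The exons of CG34347 (28490 and 10686 bases), Ggamma30A and DIP-lambda (62882 and 31210) lay between long introns. These exons were assigned by length alone. With shifted spans, 4 to 16 of the 305 still matched a block, beside 41 with the span as listed. For the other rows it was 19 to 53, beside 1909. The part that matches of length alone play in the intron lengths was not tested.

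The 264 rows away from exon ends were described by what their spans and hosts share. In 263 of them the span was shorter than the longest annotated exon of the host gene, so their length alone would let them lie inside 1 exon, and the remaining one had no gene model. The limit on span favours this by construction, so it does not set these 264 rows apart. Their spans were multiples of 3 more often than they left either other remainder, with 121 of 264 at remainder 0 (45.8%, 39.7% to 52.1%), 73 at remainder 1 (27.7%, 22.3% to 33.5%) and 70 at remainder 2 (26.5%, 21.3% to 32.3%). At exon ends 14 of 41 spans were multiples of 3 (34.1%, 20.1% to 50.6%). Over all 305 the share was 44.3% (38.6% to 50.0%), where 36.6% of all rows in the list had such a span. The share was similar in the longer rows with unique ends away from exon ends, 66 of 156 (42.3%, 34.4% to 50.5%), and in all rows with unique ends of 300 to 399 bp, 48 of 106 (45.3%, 35.6% to 55.2%). In rows with a shared end away from exon ends it was 59 of 193 (30.6%, 24.2% to 37.6%), and in the short ones among these 19 of 60 (31.7%, 20.3% to 45.0%). The remainders were compared after the spans had been seen.

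**Figure D3:**
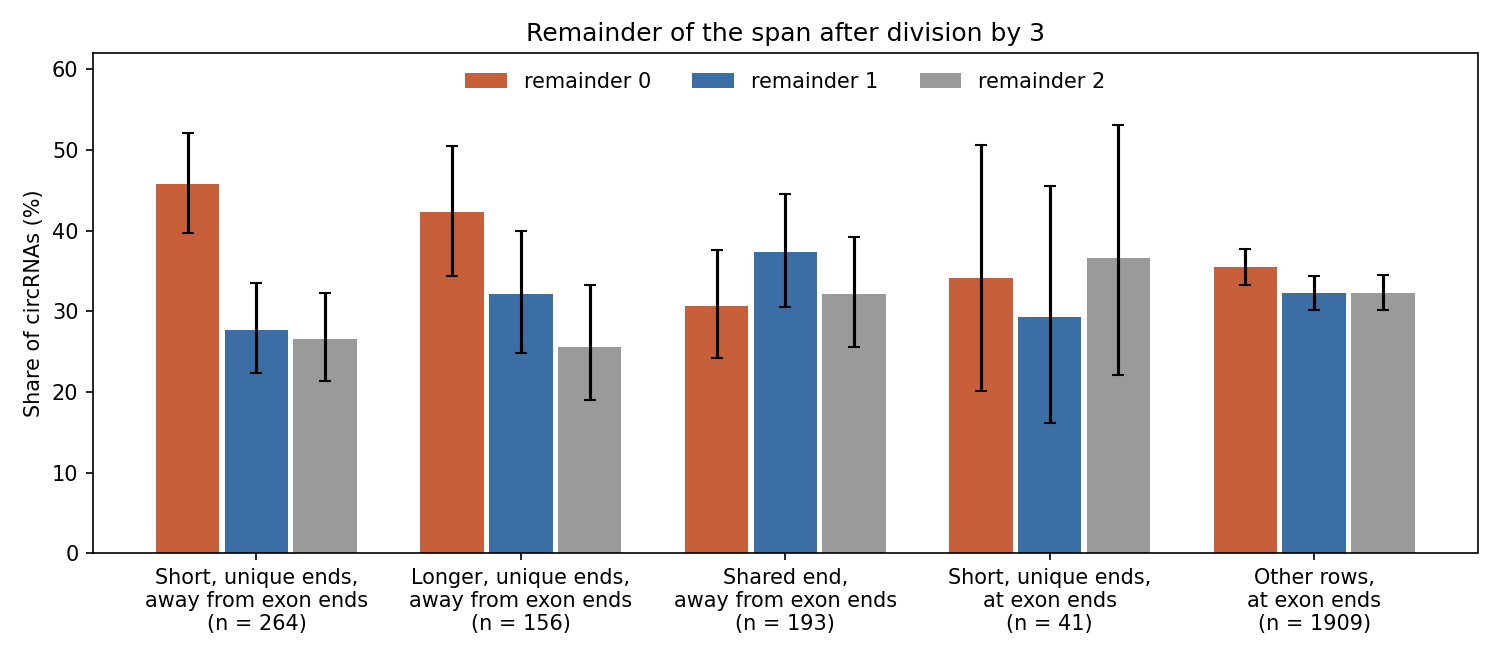
Share of circRNAs (percent) whose span leaves a remainder of 0, 1 or 2 after division by 3, for 3 classes of rows away from exon ends (short with unique ends, longer with unique ends, any span with a shared end) and 2 at exon ends (short with unique ends, and all other rows). Bars are shares and whiskers are 95% exact binomial intervals. Remainder 0 stands at 45.8% in the first class and 42.3% in the second, at 30.6% for rows with a shared end, and at 34.1% and 35.5% in the classes at exon ends.

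The 305 rows named 227 host genes by current symbol, apart from 1 row whose accession led to no current gene. Of these genes 181 had 1 short circRNA with unique ends, 29 had 2 and 17 had 3 or more. For 140 of the 227 no other row was listed, and 87 had another row as well. The mean was 1.34 rows per host gene, against 2.15 among the other rows, and rows that share an end were excluded by the choice of members. The 17 genes with 3 or more held 65 of the 305, of which 3 were at exon ends, and all 65 had 0 reads.

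Several of these hosts encode translation factors or a ribosomal protein. The elongation factor eEF2 (listed as Ef2b) had 5, with spans of 120, 113, 250, 238 and 277 bp within 1419 bp on 2L. It had 23 rows in the list, 12 of which were short with a shared end. The elongation factor subunits eEF1alpha1 and eEF1gamma had 3 each, with spans of up to 241 bp and up to 234 bp, and eEF1alpha1 had 10 more short rows with a shared end. The initiation factor subunits eIF3b (124 to 195 bp) and eIF3d1 (108 to 185 bp) had 3 each, as had sta (215 to 289 bp), a protein of the small ribosomal subunit. The 3 of eIF3b lay within 378 bp and those of sta within 571 bp. None of the short circRNAs with unique ends of these 6 genes was at exon ends, and no row of these genes had a read.

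Of hosts that encode RNA-binding proteins, sqd, an hnRNP that localises mRNAs, had 5, with spans of 116 to 272 bp within 2016 bp on 3R. That of 160 bp was at exon ends. Dp1, a KH-domain protein, had 3 (108 to 230 bp), and Larp4B, a La-related protein, had 3 (107 to 193 bp), which were all its rows. The single genes with the most were LanA and Ppn, which encode proteins of the extracellular matrix. LanA, the laminin alpha chain, had 6, with spans of 138 to 297 bp along 7033 bp of 3L, and 5 of these spans were multiples of 3. Ppn, which encodes papilin, had 6 with spans of 106 to 212 bp along 6901 bp of 3R. Among the 3 other rows of Ppn there was 1 read, and LanA had none on any of its 8 rows.

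The others were of mixed function. The kinases Lk6 and Hipk had 4 each, with spans of 112 to 177 bp and of 109 to 168 bp. l(3)80Fj (listed as CG17514) had 5 in the heterochromatic assembly 2RHet, with spans of 105 to 297 bp. The semaphorin receptor PlexA (154 to 250 bp), the mitochondrial ADP/ATP carrier sesB (105 to 117 bp) and the spectraplakin shot (122 to 194 bp) had 3 each. The spans of sesB were all multiples of 3. Those of PlexA lay far apart, along 13193 bp, and those of shot along 22264 bp. Apart from PlexA, shot and the matrix genes, the circRNAs of a gene with 3 or more fell within a stretch of 378 to 4440 bp.

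**Figure D4:**
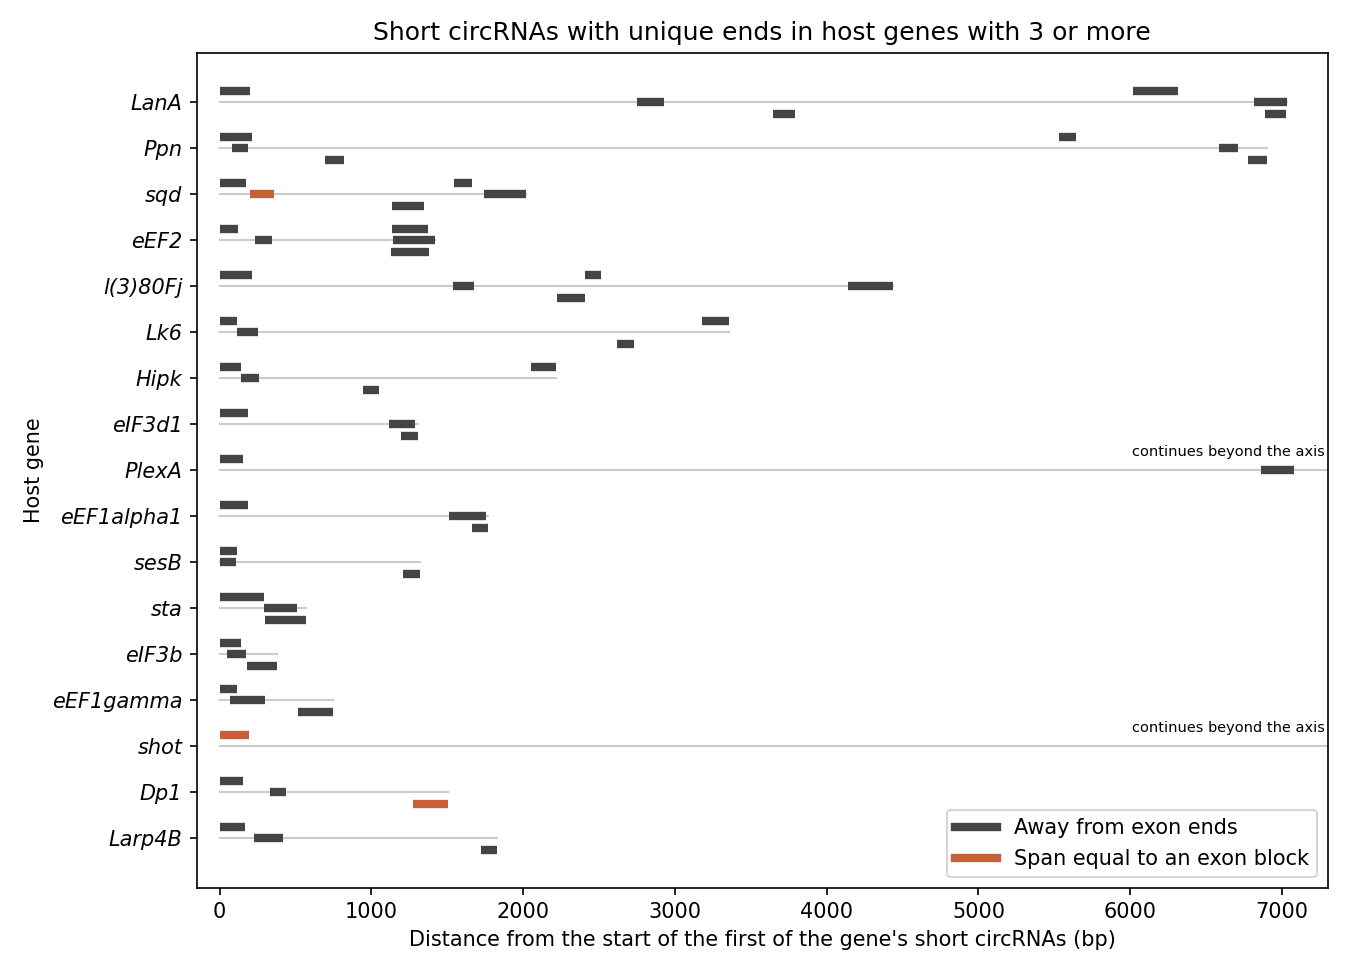
Positions of the short circRNAs with unique ends in the 17 host genes with 3 or more, as distance in bp from the start of the gene's first one, in genome order. Bars are circRNAs, staggered so that overlapping ones can be seen (later ones of PlexA and shot lie beyond the axis), dark where away from exon ends and orange where the span equals an exon block. 3 of the 65 are orange, in sqd, shot and Dp1, and those of eIF3b lie within 378 bp.

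Host genes were then compared by 13 lists of fly genes. The lists are selections and not whole classes, so a count is that of the listed genes, and other hosts of like function (eIF3d1 and eIF2A in translation, Dp1 and Larp4B among RNA-binding proteins, ap and bi among transcription factors, Ogdh, Idh3g and Mpcp2 in mitochondria) are not in them. The translation list, of ribosomal proteins and translation factors, supplied 33 of the 305 (10.8%, 7.57% to 14.9%) from 17 genes, against 70 of 2258 other rows (3.10%, 2.42% to 3.90%). Ribosomal protein genes alone supplied 17 of the 305 (5.57%, 3.28% to 8.77%) and 19 of the other rows (0.841%, 0.507% to 1.31%). They were RpL3, RpL5, RpL8, RpL37-1, RpLP0, RpS3, RpS3A, RpS4, RpS25, RpS29 and sta. None of the 33 was at exon ends and none had a read. Counting 1 row per host gene, the translation share was 7.46%. Short rows with a shared end came from the translation list in 32 of 98 cases (32.7%), and rows of 300 bp or longer in 38 of 2160 (1.76%). Counted by rows, the translation share was thus above that of longer rows among short rows of either kind. Of the 32 rows with a shared end, 12 came from eEF2 and 10 from eEF1alpha1. The share with 1 row per host gene was not computed for the comparison rows.

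The mitochondrial and metabolic list supplied 7 of the 305 (2.30%, 0.928% to 4.67%), from ATPsynbeta, Ald1, Mdh2 and sesB, against 12 of the other rows (0.531%, 0.275% to 0.926%). These limits lay next to each other, and the listed genes leave out several hosts of this kind, so no difference is read from them. The fat body and cuticle list supplied 4, from FASN1 and the yolk protein gene Yp3, against 8 of the other rows, and their intervals overlapped.

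The ion channel and receptor list supplied 1 of the 305 (0.328%, 0.0083% to 1.81%), from the acetylcholine receptor subunit gene nAChRalpha6, against 120 of the other rows (5.31%, 4.43% to 6.32%), and these intervals did not overlap. The synaptic list supplied 5 (1.64%, 0.534% to 3.78%), from Frq2, Sap47, Syt7 and unc-13, against 100 (4.43%, 3.62% to 5.36%). The adhesion and guidance list supplied 5 (1.64%, 0.534% to 3.78%), from CadN2, Fas2 and PlexA, against 102 (4.52%, 3.70% to 5.46%). For the synaptic and the adhesion list the intervals overlapped. The other rows had a median span of 1240 bp, against 167 bp for the short circRNAs with unique ends. These lists were not counted among the short rows with a shared end, nor with a single row per host gene. The part that span plays in these shares was not tested.

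The signalling list supplied 7 (2.30%), from Ac13E, Hipk, Lar and trio, against 103 of the other rows (4.56%). The transcription and chromatin list supplied 6 (1.97%), from dati, kis, wge and zfh2, against 95 (4.21%). The RNA-binding list supplied 12 (3.93%) against 92 (4.07%), and the cytoskeletal list 7 (2.30%) against 51 (2.26%). Of lists for other cell types in the head, the muscle list supplied 3 (Mhc, Msp300 and rhea), the photoreceptor list 2 (Ggamma30A and ninaC) and the glial list 0, against 20, 12 and 5 of the other rows. The intervals of these lists overlapped.

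**Figure D5:**
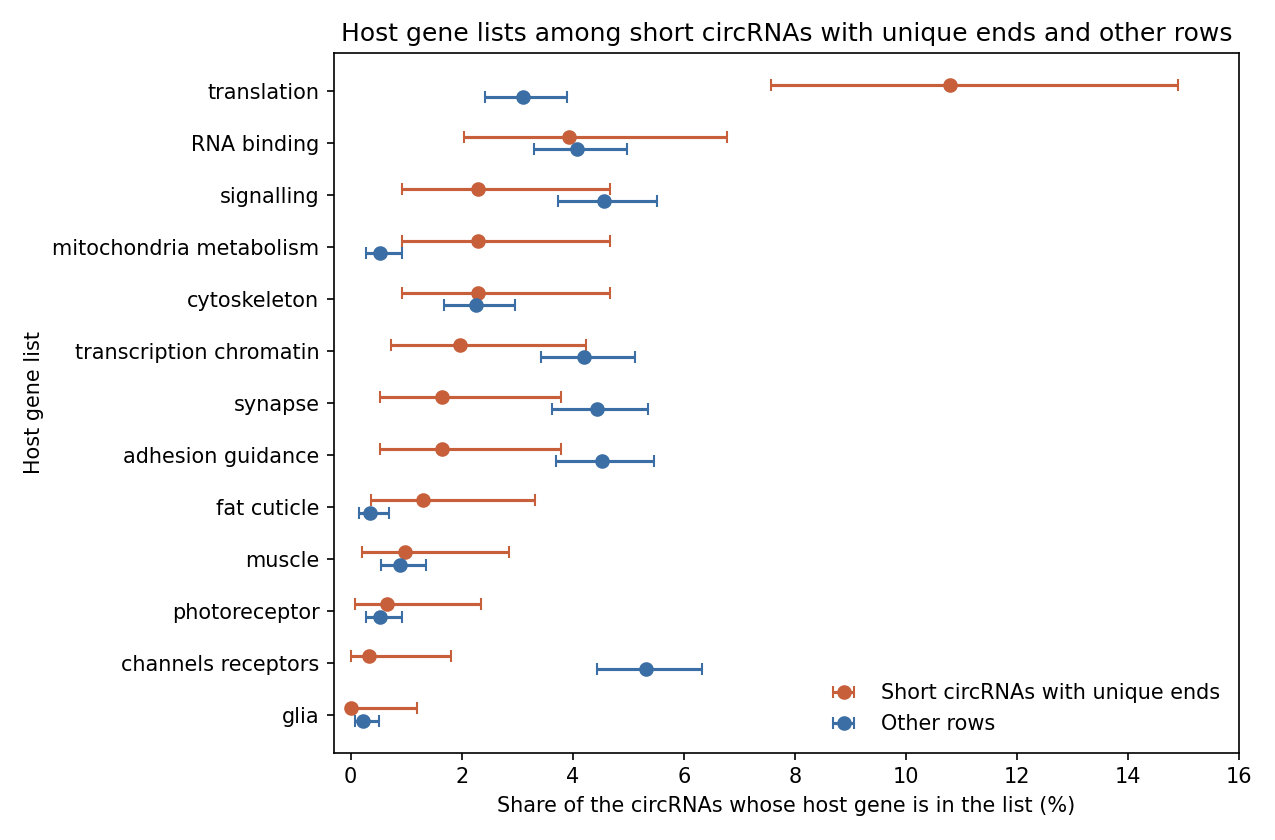
Share of circRNAs (percent, horizontal axis) whose host gene is in each of the 13 lists, for the 305 short circRNAs with unique ends (orange) and the 2258 other rows (blue). Points are shares and whiskers are 95% exact binomial intervals. The translation list stands at 10.8% against 3.10%, and channels and receptors at 0.328% against 5.31%.

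Apart from the 2 reads of Ggamma30A, reads on the same hosts fell on other, longer rows. Of the 227 host genes 87 had another row, and their 292 other rows held 68 reads on 14 rows. This share is close to that of all 2258 other rows, of which 121 had a read (5.36%). The 13 genes with such reads were led by mbl, a splicing regulator, with 42 reads and by kis, a chromatin remodeller, with 11. They were followed by Sap47, dati, ps and uex with 2 each and CG17646, Dad, Hipk, Ppn, cic, shep and trio with 1 each. The short circRNA of mbl and the 2 of kis had 0 reads.

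Most of the 305 stood alone in the list. Of them 237 overlapped no other row and 68 overlapped at least 1, among them 43 that lay wholly inside another row. Unique ends and short spans favour a lack of overlap by construction, and overlap was not counted for the other rows. At exon ends 1 of 41 overlapped another row, that of Glut1. Unique ends were in a few cases nearly shared, since for 11 circRNAs a start or end of another row lay within 5 bases of its own, with a smallest distance of 2 bases.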

How the data were processed

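The deposited table gives, per circRNA, 2 coordinates, a name of gene symbol and RefSeq accession, and whole-number read counts, which the authors summed over all samples without normalization. That column was used. The 4 columns per library carry head numbers that the labels do not tie to a buffer and were not used, so the buffers were not compared and no sample could be left out. Per the file headers, ribosomal RNA reads were removed. The submitters' processing notes name cutadapt 1.9.1 and, as genome build, dm3. The aligner and circRNA caller, any length or read minimum and whether reads cross the junction are not stated in the labels or the file.

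Coordinates are dm3, with the first raised by 1. Accessions were matched to current symbols with NCBI's table for release 6 for 302 of 305 circRNAs. For 7 the table's symbol leads to another gene than the accession, which names the host here. Overlapping and antisense genes cannot be told apart. Spans were compared with exon blocks of Ensembl release 115 (BDGP6), first for the gene of the accession and then of the symbol. Gene models were found for 304. No coordinate was converted.

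Shares have exact intervals and no test was made, since 1 pooled count leaves no replicates. The members and gene lists were chosen with earlier results of these data known. Named are circRNAs with a read, the 10 shortest and 5 longest with ties (1 of which is not reported here), rows just above the limit, host genes with 3 or more, and all at exon ends, the last chosen after their values were seen. The matching was run on simulated blocks drawn from the same gene models, which checks the code and not whether a match of length is a true one. Python 3.11.15, pandas 2.3.3, numpy 2.4.6, scipy 1.17.1 and matplotlib 3.10.9 were used.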

Additional observations from a re-analysis of the deposited data

How the results depend on the processing

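Of 54 alternatives over 10 results, 44 left the value within its interval, or a count within 1.5 times, and 10 did not. The footprint share of 0.328% ranged from 0.276% (span under 350 bp) to 0.744% (shared ends included). With shared ends included, the 2 reads became 5, the exon-end share of 13.4% became 19.6% and the translation share of 10.8% became 16.1%, from other rows by construction. The exon-end share was 18.5% with spans under 350 bp and 1.31% to 5.25% with shifted spans. The share of 1-exon matches was 91.7% under 250 bp, and the translation share was 7.46% with 1 row per host gene, where fewer rows counted. The footprint share of the comparison rows, 5.36%, was 2.04% for other rows under 300 bp and 2.01% for other rows away from exon ends. The results on divisibility by 3 and on the translation list, and these last 2 comparison rows, were chosen after seeing the data. No paired analysis was possible because the counts are pooled over all samples, which also kept single libraries from being left out. Depth limits every footprint value, since the 305 circRNAs rest on 2 reads.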

Other observations

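By chromosome, the short circRNAs with unique ends made up 11.4% of the rows on 3L, 11.6% on 2L, 11.6% on 2R, 12.3% on X, 12.4% on 3R and 13.9% on the small chromosome 4 (17 of 122 rows). Of the separately assembled heterochromatic sequences, 2RHet held 6 of them among 33 rows, and 3LHet, 3RHet and XHet held 0 among 20, 14 and 4 rows.

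Of the 227 host genes 3 were not protein coding. They were lncRNA:roX2, an RNA of the dosage compensation complex, and the antisense genes asRNA:CR43767 and asRNA:CR44179. For the antisense genes the table's own symbol names another gene, so the strand of the host is uncertain.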
